A study of Mus musculus with 6 samples.

Results

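Histone genes encode the proteins around which DNA is wound. These data measured 31 transcript clusters named for 1 histone gene each, covering 30 genes, among 65956 clusters in all. On this platform, probes that match the same gene or transcript are read together as a transcript cluster, the unit measured here. The members are all clusters with a single platform gene symbol that starts with Hist1h, Hist2h, Hist3h or Hist4h, or with H1f, H2ac, H2bc, H3c or H4c and a number. They comprise 6 clusters of linker histone H1, 10 of H2A, 9 of H2B, 3 of H3 and 3 of H4. RefSeq's table of mouse genes (assembly GRCm38.p6) lists 76 genes under such current or older names, so many histone genes have no single-symbol cluster here. All 31 clusters matched a gene in that table, 29 of them protein coding and 2 pseudogenes, and each lies on the chromosome that its cluster name gives: 23 on chromosome 13, 6 on chromosome 3, 1 on chromosome 11 and 1 on chromosome 15.

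The arrays hold total RNA of sorted bone marrow hematopoietic stem cells (HSCs) from CDK19-/- mice (3 arrays) and from wild-type mice (3 arrays), all aged 6 to 8 weeks. The kinase CDK19 belongs to the Mediator complex, which connects transcription factors with RNA polymerase II, and the series title places its role in HSC proliferation, by way of p53 and p21. The labels call the arrays biological replicates but give no number of animals per array, no sex, no sorting gate and no deleted part of the gene. The p-values therefore set the genotype difference against the spread between these arrays, which may differ from the spread between mice. Values are the authors' deposited log2 expression values, between 2.04 and 19.93, and the log base was taken as 2.

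The bulk of histone protein is made in S phase, when newly copied DNA has to be packed. The replication-dependent genes lie in tight groups without introns. Their mRNAs normally end in a conserved stem-loop, bound by SLBP, in place of a poly(A) tail, and are destroyed when DNA synthesis stops. Linker histone H1 sits on the DNA between nucleosomes, whereas an octamer of H2A, H2B, H3 and H4 forms the nucleosome core. Most HSCs of an adult mouse rest outside the cell cycle. The labels describe biotin-labelled cRNA but do not say how cDNA synthesis was primed, and a poly(A)-primed protocol would report only the polyadenylated share of these transcripts.

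In Cdk19 knockout HSCs, histone clusters tended to lie slightly below wild type, and few passed the test. The dimmest 40% of clusters, ranked by their 6-array mean, were not tested. These included 2 members and left 29 of the 31. Of these 29, 2 were called lower, Hist1h2ak and H2ac20, both encoding core histone H2A, and 0 were called higher (limma, Benjamini-Hochberg adjusted p under 0.05 over 39543 tested clusters). That is 6.9% of the members called lower, near the background of 4.84% of all tested clusters called lower, beside 2.96% called higher. At an unadjusted p under 0.05 there were 9 members, all lower, or 31% against 12.3% of all tested clusters. The log2 change was below 0 in 26 of the 29, or 89.7%, against 48.4% of all tested clusters. Knockout and wild-type arrays did not overlap in 10 members, each with the knockout lower. These are 34.5% of the members, where 14.9% of all tested clusters stood apart with the knockout lower and 11.6% with it higher. The median log2 change was -0.18 over the members and 0.00 over all tested clusters, and single members ran from -0.51 to 0.19. Histone genes are similar in sequence and share cells and arrays, so their changes are not independent of each other, and no test was made over the group. In bulk RNA, fewer cells of a type and less RNA per cell cannot be told apart.

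**Figure D1:**
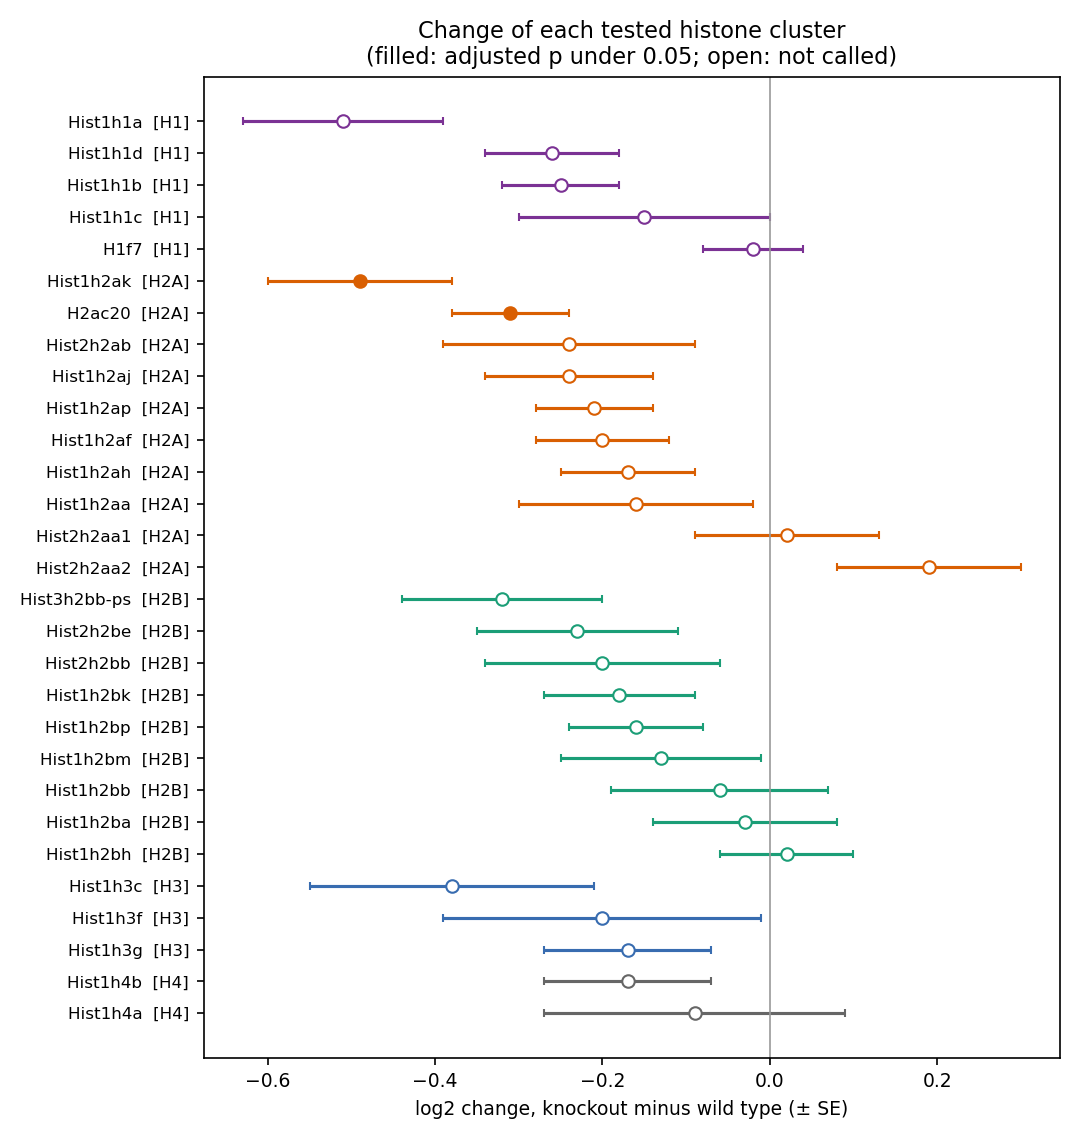
Log2 change (knockout minus wild type, x axis) of the 29 tested histone clusters, with bars of 1 standard error and a colour per histone type. Filled points passed the test and open points did not: Hist1h2ak and H2ac20 are filled, and 26 of 29 points lie left of 0.

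The knockout arrays differed among themselves in the level of these clusters. After subtracting each cluster's mean over the 6 arrays, the median of the 29 members was -0.103, -0.190 and 0.005 on knockout arrays 1, 2 and 3, against 0.028, 0.082 and 0.123 on wild-type arrays 1, 2 and 3. The same median over all tested clusters stayed between -0.008 and 0.005. Knockout array 2 thus held the lowest histone values. Knockout array 3 came nearest to wild type, but its median over the members was below that of each wild-type array. The same held for its medians in H1, H2A and H3, while those in H2B and H4 lay within the wild-type range. Among the knockout arrays, array 2 was lowest in 19 of 29 members, against 37.5% of all tested clusters, and array 3 was highest in 21 of 29, against 36.4% of all. The median SD within a genotype was 0.159 in the knockout and 0.104 in wild type for the members, beside 0.110 and 0.090 for all tested clusters. Without knockout array 2 the members' median log2 change was -0.12, with 0 called (limma; 23 of 29 below 0). Leaving out knockout array 1 or any single wild-type array also gave 0 called. Calls also became fewer over all tested clusters: 1914 were lower with all 6 arrays, 1333 without knockout array 1 and 1168 without array 2. Leaving out wild-type array 1, 2 or 3 gave 1040, 868 and 761. Without knockout array 3 the members' median log2 change was -0.23, with 4 called lower and 28 of 29 below 0. In that fit 1507 of all 39557 tested clusters were called lower.

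**Figure D2:**
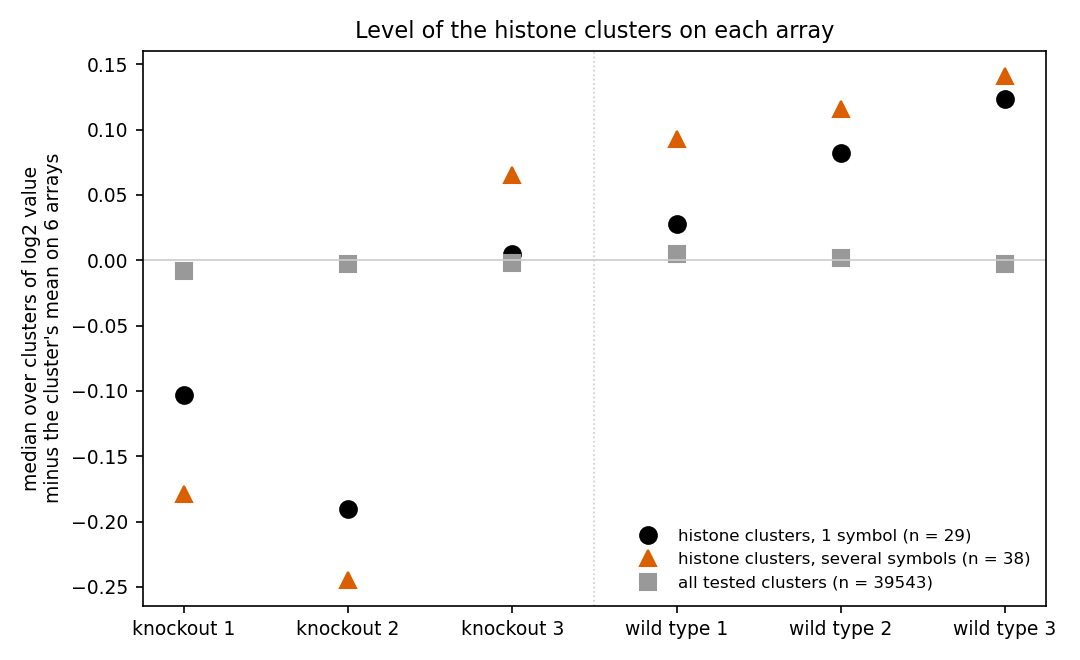
Median over clusters of the log2 value minus the cluster's mean on all 6 arrays (y axis), for each array (x axis). Circles are the 29 tested single-symbol histone clusters, triangles the 38 tested clusters that list several genes, histone genes among them, and squares all 39543 tested clusters. Circles lie at -0.103, -0.190 and 0.005 on the knockout arrays and between 0.028 and 0.123 on the wild-type arrays.

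The promoters of 26 of the 30 member genes are in the RefSeq promoter table, and the 250 bases before each start were searched on both strands for 4 motifs known from histone promoters. The CCAAT box (CCAAT) was found in 24 of 26, against 33.8% of all 32851 windows of that length, and the TATA box (TATAAA) in 10 of 26, against 12.4%. The octamer ATTTGCAT, bound by POU factors in H2B promoters, was found in 5 of 7 H2B windows and 3 of 9 H2A windows, against 1.6% of all windows. These 8 windows hold 6 distinct octamers, since 2 of them lie in bases shared by an H2A and an H2B window (Hist1h2ah with Hist1h2bk and Hist1h2aa with Hist1h2ba) and count under both types. The H1 box AAACACA was found in 4 of 6 H1 windows, 2 of 7 H2B windows and 1 of 9 H2A windows, against 6.25% of all windows. In the 5 windows printed here, no 2 motifs overlap. A match is a description of the sequence and no evidence of binding. The windows below are those of both called members, of the H1 and the H3 member with the lowest log2 change, and of an H2B member with the octamer. They are printed 5′ to 3′ on the gene's strand, in build GRCm38.p6 from RefSeq, with the letters of any of the 4 motifs, on either strand, in capitals.
H2ac20 (chr3:96220881-96221130, minus strand): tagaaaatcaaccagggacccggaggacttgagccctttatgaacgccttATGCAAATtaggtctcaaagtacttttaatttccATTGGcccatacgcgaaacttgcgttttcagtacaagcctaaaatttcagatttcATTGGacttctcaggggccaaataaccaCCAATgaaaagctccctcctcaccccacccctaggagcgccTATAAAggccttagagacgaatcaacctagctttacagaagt
Hist1h2ak, now H2ac15 (chr13:21753913-21754162, minus strand): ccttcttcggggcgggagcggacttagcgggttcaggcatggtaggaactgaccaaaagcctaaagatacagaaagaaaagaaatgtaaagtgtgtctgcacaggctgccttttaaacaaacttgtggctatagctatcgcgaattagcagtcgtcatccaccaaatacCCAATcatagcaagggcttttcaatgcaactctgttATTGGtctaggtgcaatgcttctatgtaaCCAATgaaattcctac
Hist1h1a, now H1f1 (chr13:23763418-23763667, plus strand): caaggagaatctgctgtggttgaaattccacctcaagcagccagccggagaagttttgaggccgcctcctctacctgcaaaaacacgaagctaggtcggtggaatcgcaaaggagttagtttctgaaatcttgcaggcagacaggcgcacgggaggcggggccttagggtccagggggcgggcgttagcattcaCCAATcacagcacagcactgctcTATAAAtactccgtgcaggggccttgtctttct
Hist1h2bk, now H2bc12 (chr13:22035571-22035820, plus strand): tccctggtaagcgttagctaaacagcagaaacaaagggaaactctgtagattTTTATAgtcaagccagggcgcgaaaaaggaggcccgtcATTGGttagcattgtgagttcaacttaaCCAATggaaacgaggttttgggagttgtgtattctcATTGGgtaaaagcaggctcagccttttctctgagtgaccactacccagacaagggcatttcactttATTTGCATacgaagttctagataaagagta
Hist1h3c, now H3c3 (chr13:23745522-23745771, minus strand): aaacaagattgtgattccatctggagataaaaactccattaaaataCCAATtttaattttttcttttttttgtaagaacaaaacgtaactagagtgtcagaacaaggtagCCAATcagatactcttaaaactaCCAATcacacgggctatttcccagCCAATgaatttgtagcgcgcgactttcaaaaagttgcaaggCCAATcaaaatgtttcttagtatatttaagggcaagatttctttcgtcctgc
Positions are those of a motif's first printed base relative to the start, negative before it. H2ac20 holds the octamer at -200, 3 CCAAT boxes and a TATA box at -42. Hist1h2ak has 3 CCAAT boxes, the nearest at -16. Hist1h1a has a CCAAT box at -56 and a TATA box at -33, while its window does not hold the H1 box as spelled here. Hist1h2bk carries the octamer at -30, and Hist1h3c has 5 CCAAT boxes between -204 and -52.

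Core histone H2A held both calls. Hist1h2ak was at 11.15, 11.11 and 11.46 in the knockout arrays and 11.66, 11.85 and 11.68 in the wild-type arrays. All knockout arrays were below all wild-type arrays, and knockout array 3 was the nearest to them. This is a log2 change of -0.49 (SE 0.11) or a 1.40-fold lower level, with a Benjamini-Hochberg adjusted p of 0.041 from limma. H2ac20 was at 8.83, 8.68 and 8.82 in the knockout arrays and 9.18, 9.06 and 9.03 in the wild-type arrays, again without overlap. It was 1.24-fold lower (log2 change -0.31, SE 0.07), with an adjusted p of 0.049 from limma. Neither call was steady. Over 12 alternative settings the adjusted p from limma ran from 0.015 to 0.14 for Hist1h2ak, with 5 settings under the threshold, and from 0.036 to 0.14 for H2ac20, with 2. With a single array left out, Hist1h2ak was called in 1 of 6 such fits, the one lacking knockout array 3, and H2ac20 in 0 of 6.

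**Figure D3:**
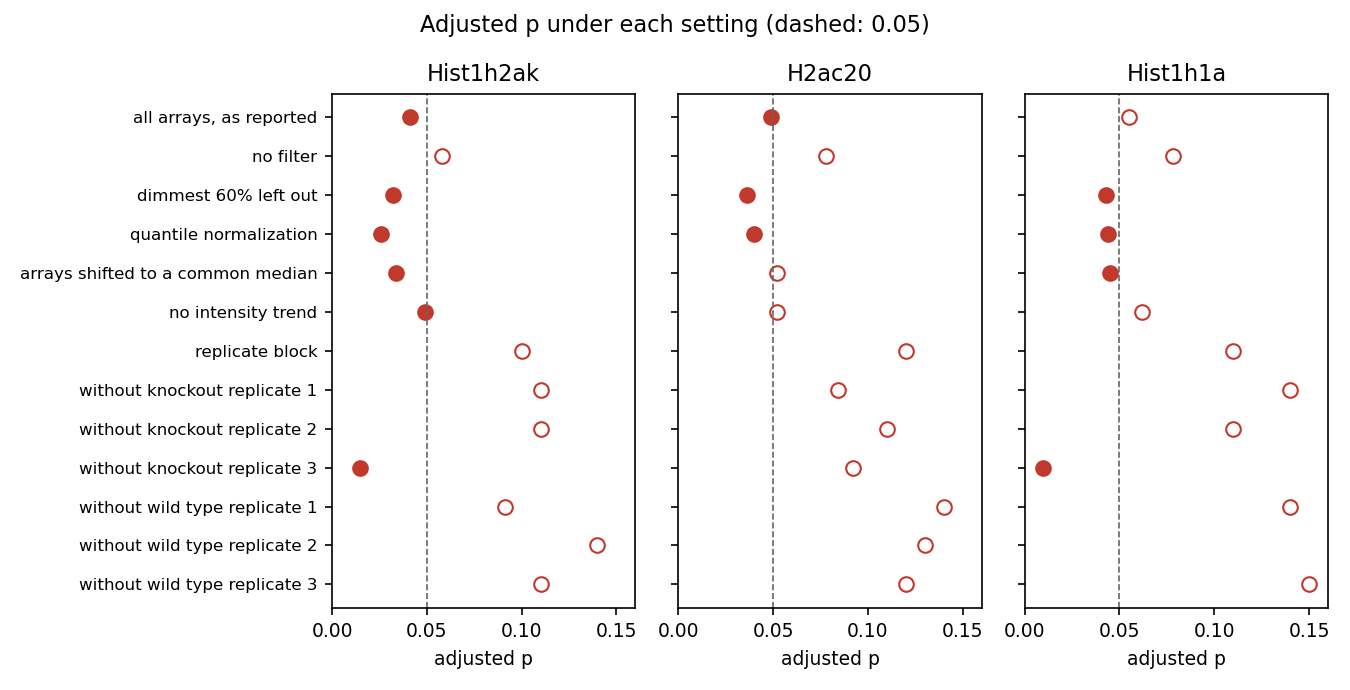
Adjusted p from limma (x axis) of Hist1h2ak, H2ac20 and Hist1h1a under the reported fit and 12 alternative settings (rows). Filled points lie under 0.05 (dashed line). Hist1h2ak is under it in 5 alternatives, Hist1h1a in 4 and H2ac20 in 2.

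The other 8 tested H2A clusters did not pass. Hist1h2af was at 18.15, 17.99 and 18.32 in the knockout arrays and 18.34, 18.33 and 18.39 in the wild-type arrays, a log2 change of -0.20 (SE 0.08). Hist1h2aj, which RefSeq lists as a pseudogene, was at 19.00, 18.84 and 19.26 in the knockout arrays and 19.26, 19.28 and 19.28 in the wild-type arrays, a change of -0.24 (SE 0.10). Both lie near the upper end of the deposited values, and whether this limits their change was not tested. Without knockout array 3 both were called lower (adjusted p = 0.040 and 0.019, limma). The platform gave Hist1h2aj no gene ID, so it was matched to RefSeq by name only. Which gene copies the probes of this pseudogene cluster report was not tested. Hist1h2ap had a log2 change of -0.21 and Hist1h2ah of -0.17, each without overlap between the genotypes. Hist2h2ab was at -0.24 and Hist1h2aa, a testis histone gene, at -0.16, and in these the genotypes overlapped. Hist2h2aa1 and Hist2h2aa2, near-identical copies on chromosome 3, had the 2 H2A values above 0, with log2 changes of 0.02 (SE 0.11) and 0.19 (SE 0.11). Arrays shifted to a common median gave Hist2h2aa1 -0.01. The H2A median was -0.21.

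Linker histone H1 had 5 tested clusters and none passed, a count of 0 at the adjusted threshold and 3 at an unadjusted p under 0.05 (limma). Hist1h1a was at 10.29, 10.14 and 10.63 in the knockout arrays and 10.87, 10.90 and 10.83 in the wild-type arrays. The genotypes did not overlap, and the knockout arrays spread over a wider range (SD 0.25) than the wild-type arrays (SD 0.04). The log2 change, -0.51 (SE 0.12), was the lowest of all 29 members and missed the threshold, with an adjusted p of 0.055 from limma. It passed in 4 of 12 alternatives, with adjusted p = 0.0098 without knockout array 3. Hist1h1b was at 7.50, 7.49 and 7.61 in the knockout arrays and 7.82, 7.70 and 7.83 in the wild-type arrays. Hist1h1d, a dim cluster, was at 4.39, 4.47 and 4.59 in the knockout arrays and 4.77, 4.79 and 4.67 in the wild-type arrays. In both of these linker genes every knockout array lay below every wild-type array, with log2 changes of -0.25 (SE 0.07) and -0.26 (SE 0.08). Their adjusted p-values from limma were 0.086 and 0.10.

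The other linker clusters showed less difference. Hist1h1c was at 9.62, 9.13 and 9.65 in the knockout arrays and 9.49, 9.67 and 9.68 in the wild-type arrays. Only knockout array 2 was below the wild-type arrays, and the log2 change of -0.15 (SE 0.15) became 0.02 without it. H1f7, a linker histone gene of developing sperm, had a log2 change of -0.02 (SE 0.06). Hist1h1t, the testis linker gene, was too dim to test, with means of 3.17 in the knockout and 3.16 in wild type. The H1 median over the 5 tested clusters was -0.25.

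**Figure D4:**
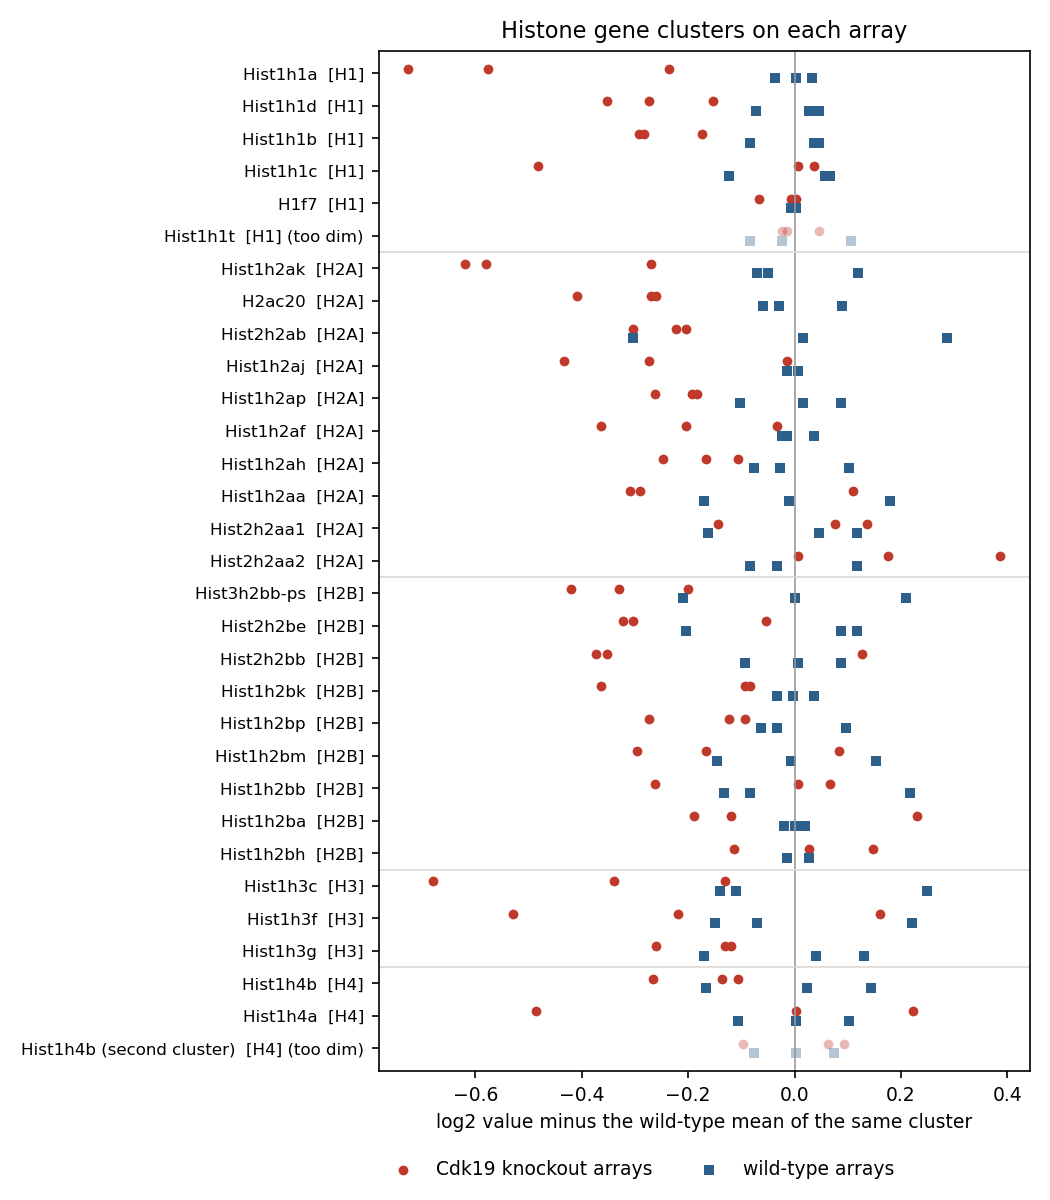
Log2 value of each of the 31 histone clusters on each array, minus the wild-type mean of that cluster (x axis), grouped by histone type. Red circles are the 3 knockout arrays and blue squares the 3 wild-type arrays, and pale symbols mark the 2 clusters too dim to test. In 10 tested clusters all red circles lie left of all blue squares.

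None of the 9 H2B clusters passed, a count of 0 with 1 at an unadjusted p under 0.05 (limma), and 8 of them had a log2 change below 0 (median -0.16). Hist2h2bb was at 9.34, 9.32 and 9.82 in the knockout arrays and 9.78, 9.60 and 9.70 in the wild-type arrays. Knockout arrays 1 and 2 lay below wild type and array 3 above it, giving -0.20 (SE 0.14). Hist1h2bk, whose promoter is shown above, was at 8.43, 8.16 and 8.44 in the knockout arrays and 8.56, 8.49 and 8.52 in the wild-type arrays. Its groups did not overlap, and its log2 change of -0.18 (SE 0.09) had an adjusted p of 0.31 from limma. Hist1h2bp stood apart as well, with -0.16 (SE 0.08). The pseudogene Hist3h2bb-ps on chromosome 11 had the lowest H2B value, -0.32 (SE 0.12), and Hist1h2bh the highest, 0.02 (SE 0.08), which was -0.01 with arrays shifted to a common median. Hist2h2be was at -0.23, Hist1h2bm at -0.13, Hist1h2bb at -0.06 and the testis gene Hist1h2ba at -0.03.

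H3 and H4 had few clusters of their own and none passed, with a count of 0 for both types also at an unadjusted p under 0.05 (limma). Hist1h3c was at 8.66, 8.32 and 8.87 in the knockout arrays and 8.86, 8.89 and 9.25 in the wild-type arrays. Knockout array 3 lay just above the lowest wild-type array, so the groups overlapped. The log2 change of -0.38 (SE 0.17) had an adjusted p of 0.25 from limma. Hist1h3f was at -0.20 (SE 0.19) and Hist1h3g at -0.17 (SE 0.10). In H4, Hist1h4a was at 7.29, 6.80 and 7.51 in the knockout arrays and 7.39, 7.18 and 7.29 in the wild-type arrays. Knockout array 2 was the lowest and array 3 the highest of all, and the change of -0.09 (SE 0.18) turned to 0.11 without array 2. Hist1h4b had a log2 change of -0.17 (SE 0.10). A second Hist1h4b cluster, which the annotation ties to 2 gene IDs, was too dim to test, at 3.64 in the knockout and 3.62 in wild type.

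H2A and H2B genes often lie head to head and share a promoter. The RefSeq table places 4 pairs of an H2A and an H2B member next to each other. Hist1h2ah and Hist1h2bk had log2 changes of -0.17 and -0.18, and the promoter windows of these genes share 177 bases. H2ac20 and Hist2h2be had -0.31 and -0.23, and Hist1h2aj and Hist1h2bm -0.24 and -0.13. The testis pair Hist1h2aa and Hist1h2ba, whose windows share 220 bases, had -0.16 and -0.03. Within each pair the changes lay on the same side of 0, as did most members. By location, 20 of 21 tested clusters on chromosome 13 and 4 of 6 on chromosome 3 were below 0 (medians -0.17 and -0.21).

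Many histone genes are so alike that the platform ties their probes to several genes at once. Another 39 clusters listed several symbols with a histone gene among them, and 38 were bright enough to test. Each cannot be assigned to 1 gene, and clusters that list the same genes are not independent. All 38 had a log2 change below 0 (range -0.65 to -0.01), against 48.4% of all tested clusters, with a median of -0.22 against 0.00. Of them 4, or 10.5%, were called lower (limma), against 4.84% of all tested clusters. The 11 H4 clusters, each listing 13 genes, held 3 of the calls and had a median of -0.32. The H4 cluster with the smallest adjusted p was at 8.22, 8.17 and 8.26 in the knockout arrays and 8.70, 8.60 and 8.87 in the wild-type arrays, a difference of -0.51 (SE 0.08) with an adjusted p of 0.015 from limma. The other call was an H2A cluster listing 10 genes, at -0.31 (SE 0.06). These clusters followed the same order across arrays as the single-symbol ones: their median deviation was -0.179, -0.245 and 0.065 on knockout arrays 1, 2 and 3, and 0.093 to 0.141 on the wild-type arrays. Without knockout array 3, 13 of them were called lower, in a fit that called 1507 of all 39557 tested clusters lower. The count was 2 without knockout array 1 or 2 or wild-type array 2. Those fits called 1333, 1168 and 868 of all tested clusters lower, against 1914 with every array kept. The count was 1 without wild-type array 1 or 3, in fits that called 1040 and 761 of all tested clusters lower.

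Many replacement histone variants are made throughout the cell cycle from separate, polyadenylated genes, but the list of variants used here was not limited to these. Of 10 tested genes on that list, 1 fell, 0 rose and 9 did not pass (limma; 4 higher and 1 lower at an unadjusted p under 0.05; median log2 change 0.11). Of all 39543 tested clusters, 4.84% were called lower and 2.96% higher. At an unadjusted p under 0.05 from limma there were 8548 of them, with 4864, or 12.3% of all, lower and the rest higher. These shares are also the background for the lists below. H2afy, encoding macroH2A1, a large H2A variant of silent chromatin, was at 12.98, 12.91 and 12.90 in the knockout arrays and 13.41, 13.43 and 13.42 in the wild-type arrays. The genotypes stood apart, and the log2 change of -0.49 (SE 0.04) had an adjusted p of 0.0018 from limma. It was called in each of the 12 alternatives, with adjusted p between 0.0016 and 0.019. A second, dim cluster of the same gene ID, named Macroh2a1, was at 4.30 in the knockout and 4.31 in wild type and did not pass. Chosen after its values were seen, H2afy2, another macroH2A gene on the list, lay on the other side of 0. It was at 6.53, 6.33 and 6.52 in the knockout arrays and 6.04, 6.20 and 6.15 in the wild-type arrays. Its log2 change of 0.33 (SE 0.08) did not pass, with an adjusted p of 0.066 from limma.

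Factors that serve histone genes showed small differences. Of 16 tested genes for the transcription, 3′ end processing and decay of histone mRNA, 0 passed (limma; 2 higher and 3 lower at an unadjusted p under 0.05; median -0.08). Lsm10, part of the U7 particle that cuts histone pre-mRNA, was at 8.24, 8.20 and 8.24 in the knockout arrays and 8.44, 8.56 and 8.45 in the wild-type arrays. It differed by -0.26 (SE 0.06), with an adjusted p of 0.054 from limma. Cdk2, the kinase that activates NPAT at S phase entry, had -0.27 (SE 0.06; adjusted p = 0.059). Chosen after their values were seen, Npat, the coactivator of histone gene clusters, was at 0.28 (SE 0.08) and Slbp at -0.12 (SE 0.06), and neither passed.

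Among 20 tested histone chaperones, 1 rose and 0 fell (limma; 5 higher and 2 lower at an unadjusted p under 0.05; median 0.06). Anp32e, which removes the variant H2A.Z from nucleosomes, was at 11.50, 11.53 and 11.49 in the knockout arrays and 11.27, 11.29 and 11.28 in the wild-type arrays. It rose by 0.23 on the log2 scale (SE 0.04), with an adjusted p of 0.029 from limma, and was called in 3 of 12 alternatives, in none of those that left out an array (adjusted p over the alternatives 0.024 to 0.14). Of 28 tested S phase and DNA replication genes, 0 passed (limma; 3 higher and 2 lower at an unadjusted p under 0.05), with a median of 0.00. Mcm4, of the replicative helicase, had a log2 change of 0.21 (SE 0.06) and Ccna2, cyclin A, -0.16 (SE 0.05). Slbp, Ccne1 and Ccne2 are on both the processing and the S phase list.

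**Figure D5:**
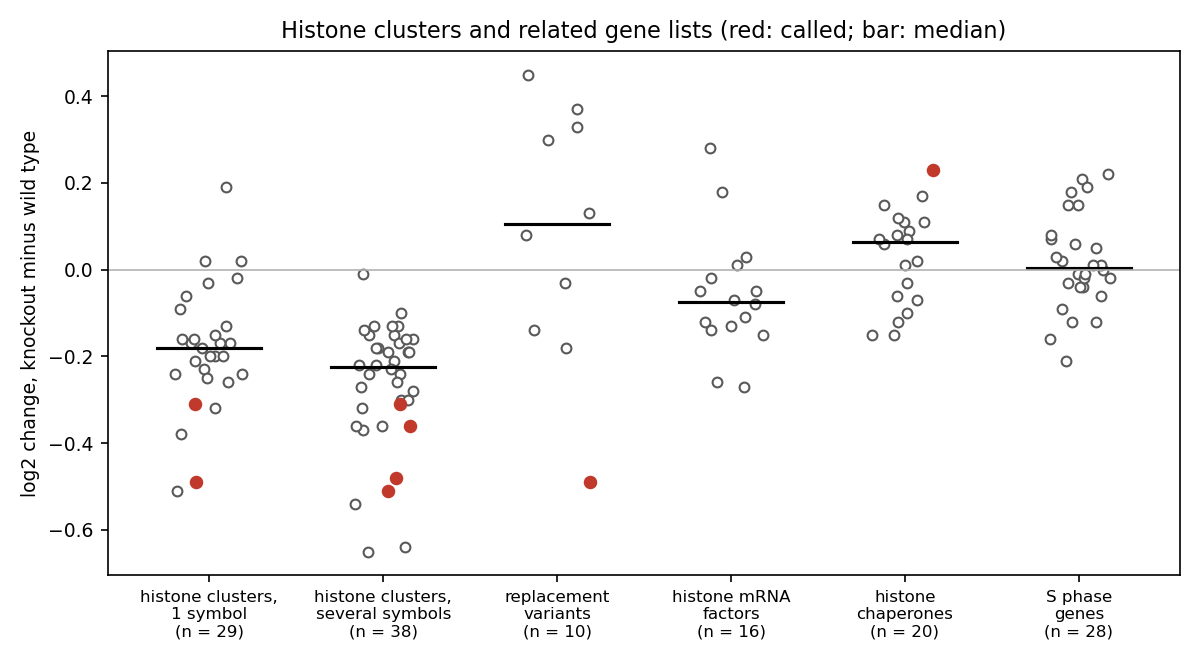
Log2 change (knockout minus wild type, y axis) of each tested cluster or gene in 6 sets (x axis, n in the labels), with a bar at the median. Red points were called by limma. The medians are -0.18 for single-symbol and -0.22 for several-symbol histone clusters, 0.11 for variants, -0.08 for mRNA factors, 0.06 for chaperones and 0.00 for S phase genes.

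The targeted gene and markers of blood cell types were read on the same arrays. Cdk19 was at 11.49, 11.42 and 11.51 in the knockout arrays and 12.49, 12.45 and 12.38 in the wild-type arrays, a 1.95-fold lower level (log2 change -0.97, adjusted p of 0.00032 from limma). Of 7 tested HSC and early progenitor markers 3 fell (Kit, Hlf and Flt3), and the mean level of the list was 10.38 to 10.42 in the knockout arrays and 10.69 to 10.75 in the wild-type arrays. Of 7 B cell markers 4 fell (mean level 5.85 to 5.89 in the knockout and 6.29 to 6.33 in wild type), and of 4 erythroid markers 1 fell (5.18 to 5.20 in the knockout and 5.38 to 5.50 in wild type). That gene was Car1 (log2 change -1.04), while Klf1, Epor and Alas2 had log2 changes of -0.06, 0.05 and 0.06. Of 4 megakaryocyte markers 2 rose (6.46 to 6.52 in the knockout and 6.11 to 6.12 in wild type), and of 7 monocyte markers 1 rose (7.23 to 7.49 in the knockout and 7.09 to 7.24 in wild type). Of 7 neutrophil markers 0 were called (limma), with 1 higher at an unadjusted p under 0.05 (mean level 8.47 to 8.65 in the knockout and 8.42 to 8.49 in wild type). Of 4 tested T and NK cell markers 0 were called (limma), with 2 higher and 1 lower at an unadjusted p under 0.05, and Cd3e and Cd8a of that list were too dim to test. The mean level of the tested T and NK cell markers was 7.03 to 7.06 in the knockout and 6.90 to 7.04 in wild type. Whether these markers have a part in the histone values was not tested.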

How the data were processed

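RNA of 6 arrays, 3 of Cdk19 knockout and 3 of wild-type HSCs, was analysed from the log2 values deposited by the authors. MAS5 is the only tool in the submitters' processing notes, without version or role. For background correction, probe summary, normalization and log base, the method is not given in the sources used here. Array medians lay between 4.40 and 4.48, and precision is limited by the number of arrays. Of 65956 clusters, 30604 had 1 platform symbol, 2146 several and 33206 none. Clusters entered the fit by brightness, whatever their symbols, and those without a single symbol were named for no gene. Genotype was fitted across all clusters with limma 3.58.1 in R 4.3.3 (empirical Bayes with an intensity trend), leaving out means up to 4.09, the dimmest 40%. Two-sided p-values were adjusted by Benjamini-Hochberg over the 39543 clusters tested. SE are moderated, and SD are over 3 arrays. The fit was tested on simulated data in which each cluster varied independently. Such data cannot speak to shifts that related clusters share on an array. For list genes the brightest cluster was taken. Named were Cdk19, called members, the 2 brightest and the highest and lowest change of each histone type, and the called or 2 top-ranked list genes. The other members were added so that all are accounted for. The members and lists were chosen with earlier results of these data known. Plots used matplotlib 3.10.9, and tables Python 3.11.15 with pandas 2.3.3.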

Additional observations from a re-analysis of the deposited data

How the results depend on the processing

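The side of 0 of most members, and the call of H2afy and Cdk19, held under the 12 alternatives, while the calls of single histone clusters did not. The count of members called lower, 2 as reported, was 0 with no filter and with the replicate block and 1 with no intensity trend. It was 3 (Hist1h1a, Hist1h2ak and H2ac20) with the dimmest 60% left out and with quantile normalization, and 2 (Hist1h1a and Hist1h2ak) with a common median. It ran from 0 to 4 with 1 array left out. Over all clusters, the settings with all 6 arrays and no replicate block called 1549 to 2237 lower, against 1914 as reported. The replicate block gave 630 higher and 1083 lower. With 1 array left out these counts ran from 540 to 970 and from 761 to 1507. The several-symbol histone clusters called lower were 2 with the replicate block and 1 to 13 with 1 array left out. Same-numbered arrays of the 2 genotypes did not deviate together (correlations -0.138, -0.097 and 0.025). With 3 arrays per genotype this cannot decide whether the numbers pair the samples. The chaperone list had 0 called higher with no filter, a common median, the replicate block or any array left out. With the dimmest 60% left out, 2 histone mRNA factors were called lower and 2 variants higher. Quantile normalization gave 2 variants and 1 S phase gene higher, and leaving out 1 array gave 0 to 1 variants higher. With 1 array left out, the members' median ran from -0.23 to -0.12, that of H1 from -0.29 to -0.22, H2A from -0.26 to -0.14, H2B from -0.18 to -0.10, H3 from -0.38 to -0.15 and H4 from -0.21 to 0.00. Signs turned in 6 members, none of them called. With a common median Hist2h2aa1 and Hist1h2bh were each at -0.01. With 1 array left out, Hist2h2aa1 ran from -0.06 to 0.11, Hist1h2bh from -0.04 to 0.09, Hist1h2bb from -0.13 to 0.05, Hist1h2ba from -0.16 to 0.05, Hist1h1c from -0.24 to 0.02 and Hist1h4a from -0.24 to 0.11. The cause of these changes was not tested. Low signal left 2 members untested, and the 60% filter left out another 4 (Hist1h1d, Hist1h4b, Hist1h2ap and H1f7).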
